A study of Homo sapiens with 8 samples.

Results

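The integrin subunit genes described here are 10 genes whose proteins build receptors for the extracellular matrix, namely 7 alpha subunit genes (ITGA1, ITGA2, ITGA3, ITGA5, ITGA6, ITGA11 and ITGAV) and 3 beta subunit genes (ITGB1, ITGB3 and ITGB5). They were taken by gene symbol from the 16796 genes of the count files, and each of the 10 had a row. The RNA came from LX-2 cells, an immortalized human hepatic stellate cell line that carries many traits of the myofibroblasts that lay down scar matrix in liver fibrosis. All cultures grew in DMEM with 5% fetal bovine serum. Control cultures received the vehicle DMSO and treated cultures received OSMI-1 at 50 µM, an inhibitor of O-GlcNAc transferase (OGT, the enzyme that attaches O-GlcNAc sugars to nuclear and cytoplasmic proteins) and named OGTi below. Both arms were harvested at 24 h with 4 biological replicates each, and treated and control cultures of one replicate number were analysed as a pair. The model is therefore 1 cell line at 1 dose and 1 time.

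Integrins are receptors made of 1 alpha and 1 beta chain that span the plasma membrane, bind matrix proteins outside the cell and couple to actin through talin and kindlin inside it. The alpha chain largely sets which ligand is bound. The β1 chain pairs with α1, α2 and α11 to form collagen receptors, with α5 to form the main fibronectin receptor, and with α3 and α6 to form receptors that chiefly bind laminin, while αv pairs with several beta chains, among them β3 and β5, into receptors for vitronectin and other RGD-containing ligands that can also bind latent TGF-β. In stellate cells, integrins anchor the cell to the scar, sense its stiffness and take part in the release of active TGF-β.

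The question addressed here was whether OGT inhibition altered the transcript levels of these receptors. The 3 collagen receptor alpha genes among the 10 were higher in OGTi cultures, with ITGA2 at 2.39 times the control level. The laminin receptor genes ITGA3 and ITGA6 were higher as well, at 1.58 and 1.38 times. ITGB1, the shared partner of these alpha chains, was lower by 14.3%, and ITGB3 was lower by 35.3%. A gene was called where its q, the Benjamini-Hochberg adjusted p over all genes tested with the DESeq2 Wald test with the replicate number as a block, was 0.05 or lower. By that rule 8 of the 10 genes were called, where 46.6% of the 14028 genes tested were. The 6 called higher were all alpha subunit genes and the 2 called lower were both beta subunit genes, against a background of 22.7% of tested genes called higher and 24.0% called lower. The median log2 fold change of the 10 genes was 0.32, beside 0.00 over all genes tested.

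**Figure D1:**
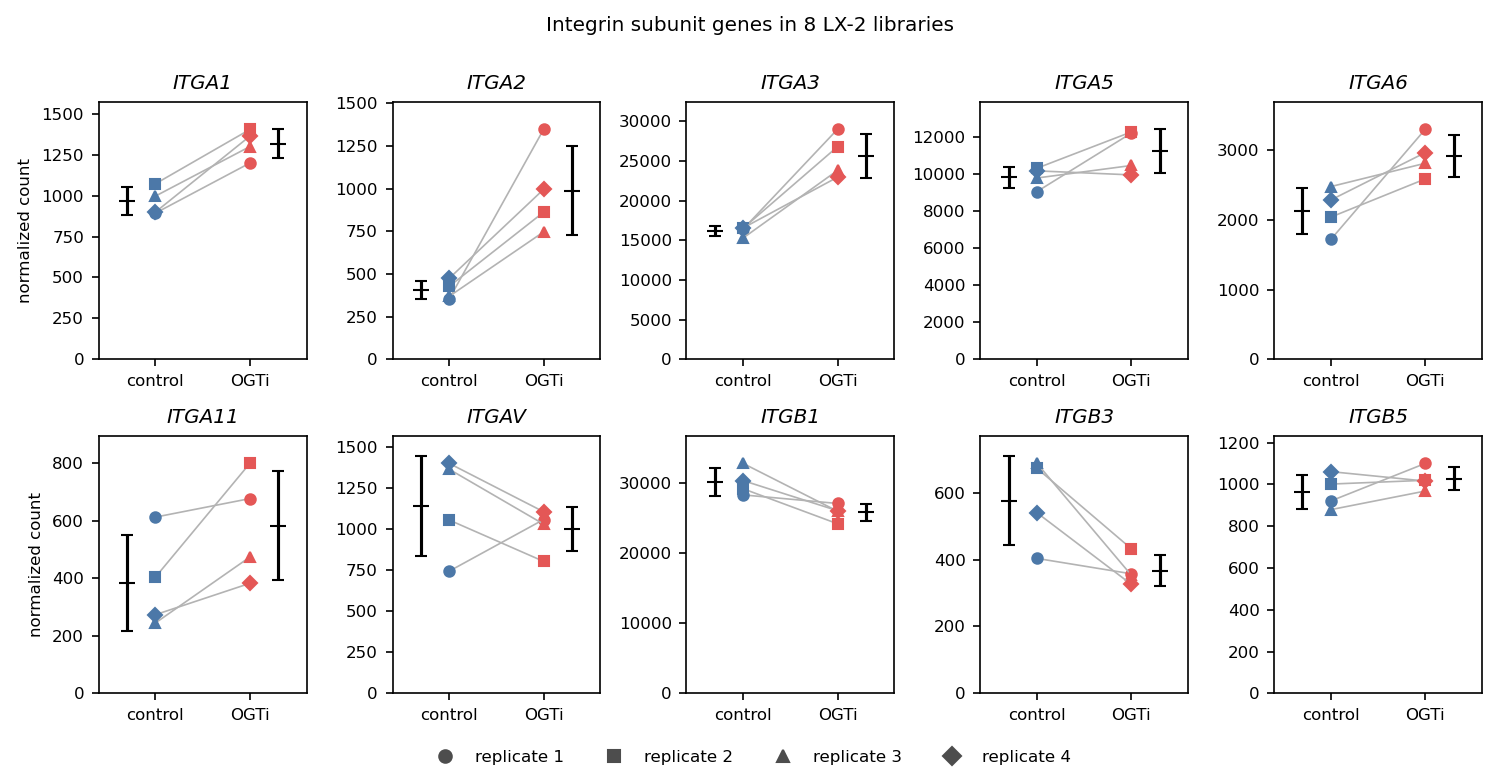
Normalized counts (raw counts divided by the size factor of the library) of the 10 integrin subunit genes in 4 control and 4 OGTi libraries, each panel with its own axis from 0, lines joining the cultures of one replicate number, and black bars giving mean and SD. Controls and OGTi libraries do not overlap for ITGA1, ITGA2, ITGA3, ITGA6 and ITGB1.

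The 8 libraries held between 24166756 and 28201215 counts and 12829 to 13180 genes with at least 10 counts each. Of the 10 stellate cell markers examined, LRAT and DES were at or near 0 (at most 5.75 normalized counts in any library), and the summed level of all 10 ranged from 215444 to 241561 in controls and from 165170 to 197849 in OGTi. Of the 8 tested, 6 were lower in OGTi, among them COL1A1, COL1A2, ACTA2 (log2 fold change -1.75, DESeq2, q = 3.45e-27) and PDGFRB (-0.90, q = 1.95e-23), 1 was higher and 1 was not called. The share called was 87.5%, beside 46.6% of all genes tested, of which 24.0% were called lower. Of 12 markers of other liver cells, APOA1 of hepatocytes, PTPRC of blood cells, PECAM1 of endothelium and KRT19 of bile duct were at or near 0 (at most 11.5 normalized counts). CD68, a lysosomal protein typical of macrophages, ranged from 2412 to 4023 in controls and from 5512 to 9305 in OGTi. The bile duct keratin KRT7 ranged from 67.6 to 141 and from 32.1 to 77.1. The endothelial marker VWF ranged from 16.6 to 41.3 in controls and from 12.0 to 22.8 in OGTi. Of the 12 markers, 7 had a row, and ALB, TTR, MARCO, STAB2 and EPCAM had none. The summed level of the other-cell markers was 2530 to 4192 in controls and 5572 to 9389 in OGTi, nearly all of it CD68, and its part in the integrin values was not tested. All libraries came from the LX-2 line. In RNA from whole cultures, a change in some of the cells and a change in all of them cannot be told apart. That limit applies to each value below.

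The start regions of 4 of the genes are shown because ITGA1 and ITGA2 are neighbours that were both higher, and because ITGA5 and ITGB1 were the members with the letters GGAATG, the core recognized by TEAD factors, before a RefSeq transcript start. ITGA1 (chr5:52787916-52959209, 29 exons in its canonical transcript) and ITGA2 (chr5:52989340-53094779, 30 exons) lie head to tail on the plus strand of GRCh38 with 30130 bases between them. ITGA5 lies on the minus strand at chr12:54395261-54419266 (30 exons) and ITGB1 on the minus strand at chr10:32887273-33005792 (16 exons). Each sequence gives the 250 bases before a RefSeq transcript start on GRCh38.p14, in the direction of the gene, with matches to GGAATG, to the GC box GGGCGG and to the AP-1 site TGANTCA on either strand in capitals (matches on the other strand appear as CATTCC and CCGCCC).
ITGA1, chr5:52787666-52787915, plus strand: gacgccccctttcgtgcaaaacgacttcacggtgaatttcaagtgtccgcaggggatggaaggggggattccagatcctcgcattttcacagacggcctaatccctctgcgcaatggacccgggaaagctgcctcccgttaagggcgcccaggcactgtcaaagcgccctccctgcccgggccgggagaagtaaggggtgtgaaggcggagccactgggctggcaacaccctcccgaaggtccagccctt
ITGA2, chr5:52989102-52989351, plus strand: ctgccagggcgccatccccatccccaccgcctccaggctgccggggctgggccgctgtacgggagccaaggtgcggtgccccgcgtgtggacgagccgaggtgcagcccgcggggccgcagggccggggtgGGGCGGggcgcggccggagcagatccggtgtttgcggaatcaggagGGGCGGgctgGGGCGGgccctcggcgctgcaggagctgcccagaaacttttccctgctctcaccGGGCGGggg
ITGA5, chr12:54419267-54419516, minus strand: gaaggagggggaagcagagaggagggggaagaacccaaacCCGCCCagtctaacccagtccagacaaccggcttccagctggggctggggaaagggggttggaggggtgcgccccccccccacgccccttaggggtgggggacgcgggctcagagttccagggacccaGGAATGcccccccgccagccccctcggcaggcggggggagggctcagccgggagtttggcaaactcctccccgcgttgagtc
ITGB1, chr10:32958231-32958480, minus strand: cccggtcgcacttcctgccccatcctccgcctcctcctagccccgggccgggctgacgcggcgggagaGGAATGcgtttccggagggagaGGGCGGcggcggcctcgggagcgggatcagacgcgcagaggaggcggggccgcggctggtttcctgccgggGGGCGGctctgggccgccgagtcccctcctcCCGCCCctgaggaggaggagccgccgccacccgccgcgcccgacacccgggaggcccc
The ITGA1 window held none of the 3 motifs and the ITGA2 window held 4 GC boxes. The GGAATG match began 82 bases before the RefSeq transcript start of ITGA5 and 182 bases before the one used for ITGB1, which lies inside the longer GENCODE 44 gene model given above. The second ITGB1 window of the table had no match to any of the 3 motifs. The RefSeq promoter table gave 13 windows for 8 of the 10 genes, and ITGA3 and ITGB3 had none. GGAATG was found in 2 of the 13 windows (15.4%) and in 11.9% of all 35116 windows of the table. GC boxes were found in 6 of the 13 windows (46.2%), which belong to ITGA2, ITGA5, ITGA6, ITGB1 and ITGB5, and in 42.6% of all windows. The AP-1 letters were found in 0 of the 13 and in 6.57% of all windows. A match describes these letters and not binding. The 2 genes with GGAATG were called in opposite directions, ITGA5 higher and ITGB1 lower.

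Among the collagen-binding alpha chains, ITGA2 changed most. It encodes α2, which with β1 binds fibrillar collagen. Its normalized counts in control replicates 1 to 4 were 354, 427, 369 and 474, and in the OGTi replicates they were 1349, 863, 747 and 997. The lowest treated library stood above the highest control library, and OGTi replicate 1 was the highest of all. The log2 fold change was 1.26 ± 0.15 (SE, DESeq2, q = 1.25e-16), the largest among the 10 genes, and the gene was higher in 4 of 4 pairs. The log2 ratio was 1.93 in pair 1 and between 1.01 and 1.07 in the other pairs.

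ITGA1, which encodes the α1 chain that prefers basement membrane collagen, measured 893, 1073, 997 and 899.7 normalized counts in controls and 1199.9, 1405, 1301 and 1364 in OGTi. The groups did not overlap, and the 4 pairs gave log2 ratios between 0.38 and 0.60. The log2 fold change was 0.45 ± 0.09 (SE, DESeq2, q = 4.75e-06). PELO, a ribosome rescue factor gene that lies within ITGA1 on the same strand and shares 499 exon bases with it in GENCODE 44, rose too, from 791 ± 58.0 to 1115 ± 31.1 normalized counts (SD, n = 4; log2 fold change 0.50 ± 0.09, DESeq2, q = 7.33e-07). The estimated count of ITGA1 was a whole number in 8 of 8 libraries. ITGA2 was the only one of the 10 genes with fractional counts, which arise when reads are divided between genes, in 5 of 8 libraries.

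ITGA11 encodes α11, a fibrillar collagen receptor chain typical of fibroblasts and myofibroblasts, and lies on the minus strand at chr15:68296532-68432163 (30 exons). Its normalized counts were 613, 404, 245 and 273.5 in controls and 677, 799.6, 474 and 383 in OGTi. Replicates 1 and 2 were the highest of both arms, so that the groups overlapped although the OGTi culture was higher in 4 of 4 pairs. The log2 fold change was 0.64 ± 0.15 (SE, DESeq2 with the replicate block, q = 1.08e-04). Without the block the spread between replicates entered the error, and the gene was not called (log2 fold change 0.60, q = 0.201).

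Both laminin receptor chains among the 10 genes were higher in OGTi cultures. ITGA3 (chr17:50055968-50090481, plus strand, 26 exons) encodes α3. It measured 16394, 16501, 15266 and 16536 normalized counts in controls and 28986, 26792, 23801 and 22943 in OGTi. Every treated library exceeded every control by a wide margin, and the pair log2 ratios ran from 0.47 to 0.82. The difference amounted to a log2 fold change of 0.66 ± 0.07 (SE, DESeq2, q = 8.53e-19). ITGA6 (chr2:172427354-172506459, plus strand, 26 exons) encodes α6, which pairs with β1 or β4. Its counts ranged from 1719 to 2479 in controls and from 2588 to 3303 in OGTi, again without overlap. Control replicate 1 was the lowest and OGTi replicate 1 the highest library, and the pair log2 ratio was 0.94 in pair 1 against 0.18 to 0.38 in the others. Its log2 fold change was 0.46 ± 0.11 (SE, DESeq2, q = 8.28e-05), and without pair 1 it was 0.30 (q = 0.00238).

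The fibronectin receptor gene ITGA5 differed little between the groups. Its normalized counts were 9066, 10329.7, 9800.2 and 10187 in controls and 12233, 12293, 10477 and 9968 in OGTi. OGTi replicates 1, 2 and 3 stood above all controls, whereas OGTi replicate 4 lay among them. A log2 fold change of 0.19 ± 0.08 (SE, DESeq2, q = 0.0447) was called by a narrow margin, with 3 of 4 pairs higher. The call was lost without the block (q = 0.0733) and without pair 1, 2 or 3 (q = 0.288, 0.203 and 0.0710). FN1, the gene of its ligand fibronectin, was lower, with a log2 fold change of -0.30 (DESeq2, q = 4.48e-04).

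None of the vitronectin receptor chains was called higher. ITGAV (chr2:186590010-186680901, plus strand, 30 exons) encodes αv and measured 745, 1057, 1366 and 1402 normalized counts in controls and 1060.1, 805, 1032 and 1107 in OGTi. The OGTi values lay inside the control range. Pair 1 was higher in OGTi, with a log2 ratio of 0.51, and the other 3 pairs were lower, between -0.41 and -0.34. With a log2 fold change of -0.16 ± 0.14 (SE, 95% interval -0.43 to 0.10) the gene was not called (DESeq2, q = 0.343). Without pair 1 it was -0.38 and was called (q = 0.00134).

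ITGB3, the β3 partner of αv, lies on the plus strand at chr17:47253827-47313743 (15 exons). It measured 403, 673, 687 and 539.8 normalized counts in controls and 357, 432, 353 and 326 in OGTi. OGTi replicate 2 exceeded control replicate 1, so that the groups overlapped, while the OGTi culture was lower in 4 of 4 pairs. ITGB3 fell by 0.63 ± 0.14 on the log2 scale (SE, DESeq2, q = 4.02e-05). The smallest difference was in pair 1, with a log2 ratio of -0.17, and the largest in pair 3, with -0.96. In GENCODE 44 a protein-coding gene model without a symbol (ENSG00000259753) shares 2266 exon bases with ITGB3 on the same strand, and the estimated count of ITGB3 was whole in 8 of 8 libraries. ITGB5 (chr3:124761948-124901418, minus strand, 15 exons), the β5 partner of αv, ranged from 879 to 1061 in controls and from 968 to 1100.3 in OGTi. Its log2 fold change was 0.09 ± 0.10 (SE, 95% interval -0.10 to 0.28) and was not called (DESeq2, q = 0.478).

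ITGB1, the β1 chain shared by the collagen, fibronectin and laminin receptors, measured 28327, 29205, 32820.5 and 30366 normalized counts in controls and 27102, 24205.5, 25997 and 26068.5 in OGTi. Each OGTi library was below each control, though the gap between control replicate 1 and OGTi replicate 1 was small beside the control range. ITGB1 fell by 0.22 ± 0.07 on the log2 scale (SE, DESeq2, q = 0.00301), in 4 of 4 pairs. Leaving out pair 2 or pair 3 moved q to 0.0510 and 0.0525, past the threshold. In all, 5 of the 10 genes had groups that did not overlap (ITGA1, ITGA2, ITGA3, ITGA6 and ITGB1), and 40.0% of all genes tested had such groups.

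**Figure D2:**
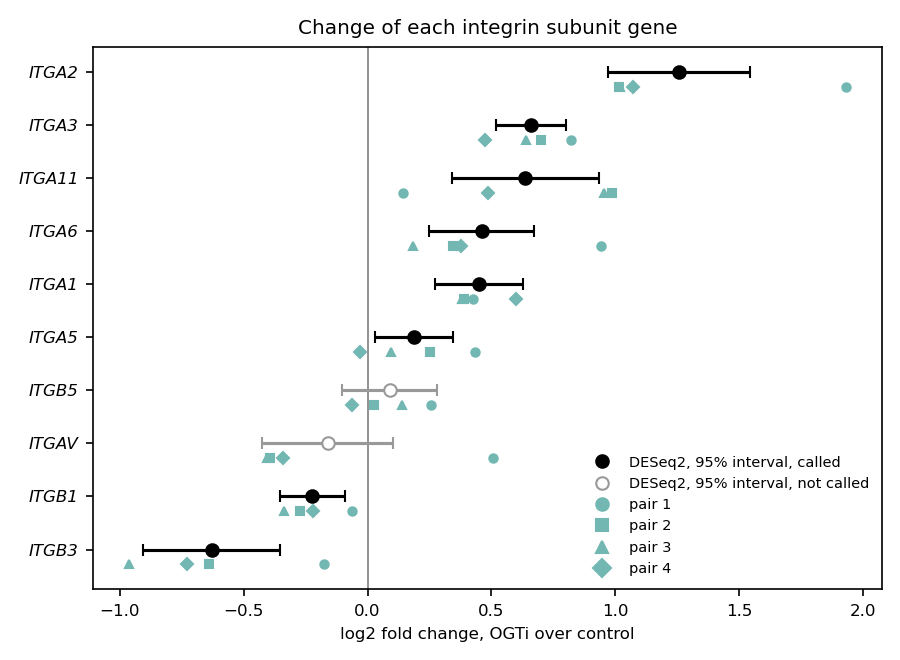
Log2 fold change of OGTi over control for each integrin subunit gene (horizontal axis), with circles and bars for the DESeq2 estimate and its 95% interval and smaller green symbols for the log2 ratio of each pair. Filled circles mark genes called at a q of 0.05 or lower, from ITGA2 at 1.26 to ITGB3 at -0.63, and pair 1 lies apart from the other pairs for ITGA2, ITGA6 and ITGAV.

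Pair 1 stood apart from the other 3 in several genes. It gave the highest of the 4 log2 ratios in 8 of the 10 genes, where it did so in 25.9% of all genes tested, namely for ITGA2, ITGA3, ITGA5, ITGA6, ITGAV, ITGB1, ITGB3 and ITGB5, the lowest for ITGA11, and an intermediate one for ITGA1. With both libraries of pair 1 left out, ITGA2 remained called higher at a log2 fold change of 1.04.

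To compare genes with each other, normalized counts were divided by the length of the canonical transcript in kilobases. In controls ITGB1 led with 8080.25 ± 522 normalized counts per kb (SD, n = 4), followed by ITGA3 at 3308 ± 124 and ITGA5 at 2317 ± 133. ITGA6 followed at 366 ± 56.4, and the ranges of these first 4 genes did not touch each other. Below them lay ITGB5 (217 ± 18.3), ITGAV (162 ± 43.6), ITGB3 (96.9 ± 22.3) and ITGA1 (89.96 ± 7.99), neighbours whose library ranges overlapped in each step. ITGA2 (51.8 ± 7.08) and ITGA11 (37.7 ± 16.5) closed the order and overlapped each other.

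In OGTi cultures the first 5 places were unchanged, with 6919 ± 322 normalized counts per kb for ITGB1, 5242 ± 569 for ITGA3, 2645 ± 281 for ITGA5, 502 ± 51.6 for ITGA6 and 231 ± 12.3 for ITGB5. ITGA2 reached 126 ± 33.3 and ITGA1 123 ± 8.33, within the library range of each other and of ITGAV at 142 ± 19.1. ITGB3 at 61.8 ± 7.67 now lay beside ITGA11 at 57.2 ± 18.6, again with overlapping ranges. In the control libraries ITGA1 had been above ITGA2 without overlap.

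The balance between β1 and 6 of its alpha partners differed between the groups in these units. Levels were summed over the partners ITGA1, ITGA2, ITGA3, ITGA5, ITGA6 and ITGA11. ITGAV, ITGA7 and ITGA10, whose chains can also pair with β1, were not in the sum, and none of them was called higher. ITGB1 divided by this sum was 1.27, 1.23, 1.46 and 1.28 in controls and 0.746, 0.709, 0.861 and 0.890 in OGTi. All OGTi values lay below all control values, with means of 1.31 ± 0.10 and 0.802 ± 0.088 (SD, n = 4). The partners summed to 6171 ± 204 normalized counts per kb in controls and 8696 ± 888 in OGTi, whereas the sum of all 10 genes was 14728 ± 592 in controls and 16049.8 ± 983 in OGTi. Most of the partner sum was ITGA3, at 3308 in controls and 5242 in OGTi, and ITGA5, at 2317 and 2645. These ratios describe transcripts per length and depend on the transcript model used, and they were given no test. With the longest transcript of each gene the ratio was 0.984 in controls and 0.5995 in OGTi.

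Within the 7 alpha genes, ITGA3 made up 52.3 ± 2.1% of the summed level per kb in controls and 59.3 ± 0.56% in OGTi (SD, n = 4), and ITGA5 made up 36.6 ± 1.02% and 29.9 ± 0.96%. Neither gene's share overlapped between the groups. The 3 collagen-binding chains together contributed 2.84 ± 0.24% in controls and 3.46 ± 0.19% in OGTi, which leaves them a small part of the alpha transcripts in both. Among them the share of ITGA2 was 0.82% in controls and 1.42% in OGTi. The shares of the others differed little, at 1.42% and 1.40% for ITGA1 and 0.60% and 0.64% for ITGA11. The share of ITGA6 was 5.78 ± 0.86% and 5.71 ± 0.65%, and that of ITGAV 2.56 ± 0.65% and 1.63 ± 0.32%.

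**Figure D3:**
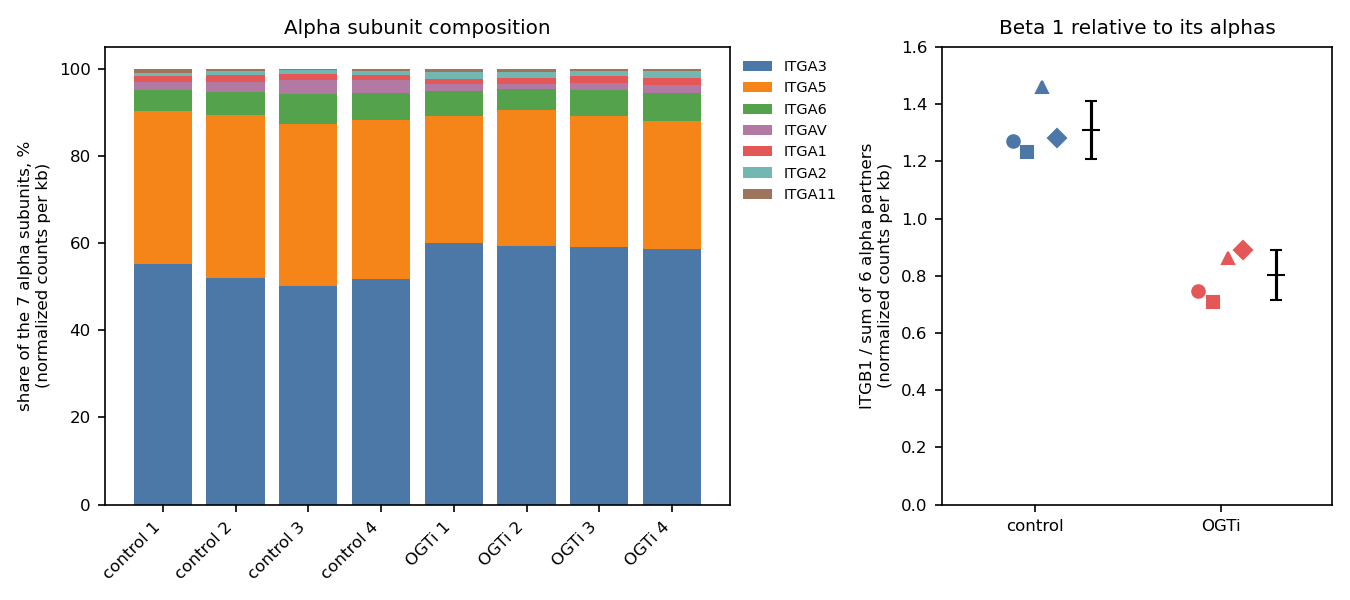
Left, share of each of the 7 alpha subunit genes in their summed normalized count per kb (vertical axis, %) in each of the 8 libraries. Right, level of ITGB1 divided by the summed level of 6 of its alpha partners in each library. Symbols give replicates 1 to 4 (circle, square, triangle and diamond), with mean and SD in black, at 1.31 in controls and 0.802 in OGTi.

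Of the 16 other integrin subunit genes listed, 13 had a row, 10 were tested, 1 was called higher and 4 lower, with a median log2 fold change of -0.33. The share called, 5 of 10, was close to the 46.6% of all genes tested. They include further partners of the chains above. ITGB8, which pairs with αv, had a log2 fold change of -1.35 (from 257 ± 86.8 to 104 ± 48.4 normalized counts, SD, n = 4; DESeq2, q = 1.04e-08). ITGB4, the other partner of α6, had one of -0.56 (q = 3.30e-05), and ITGA2B, the platelet partner of β3, one of -1.57 (q = 2.26e-07) from a low level of 107 ± 23.5. ITGAX, a leukocyte chain, was the 1 called higher, at 21.7 ± 5.44 and 54.03 ± 11.9 normalized counts. ITGA7, whose α7 chain binds laminin with β1, was called lower, at 713 and 556 normalized counts (log2 fold change -0.39, DESeq2, q = 0.00305). ITGA10, whose α10 chain binds collagen with β1, was at 20.3 and 12.1 and was not called (-0.81, DESeq2, q = 0.271).

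Talins, kindlins and RAP1 pathway proteins switch integrins on and link them to actin. Of 14 integrin activation genes, 57.1% were called, 1 higher and 7 lower, beside 46.6% of all genes tested, with a median log2 fold change of -0.29. TLN1, the main talin, and FERMT2, kindlin-2, both bind beta chain tails and had log2 fold changes of -0.53 and -0.66 (DESeq2, q = 2.08e-14 and 8.51e-16). TLN2, the second talin gene, rose by contrast from 3169 ± 112 to 5123 ± 361 normalized counts (log2 fold change 0.69, q = 7.43e-18). RAPGEF1, an exchange factor for RAP1, was lower, at -0.48.

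Of 20 genes for adhesion adaptors and kinases, 1 was called higher, 12 lower and 7 were not called, with a median log2 fold change of -0.30. The share called was 65%, beside 46.6% of all genes tested. The tensins TNS3 and TNS1, which tie β1 integrins to actin, were at -1.25 and -1.23 on the log2 scale (DESeq2, q = 2.82e-45 and 2.08e-36). The stress fibre protein gene ZYX was at -0.88 and LIMS2, a partner of integrin-linked kinase, at -1.02, each lower in 4 of 4 pairs. All 20 and all 14 genes of these lists were tested.

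Of 9 other collagen receptor and matrix co-receptor genes, 2 were called higher and 2 lower, with a median log2 fold change of 0.17. These 44.4% were close to the share called over all genes tested. DDR2, a receptor kinase for fibrillar collagen, rose from 2942 ± 423 to 4942 ± 317 normalized counts (log2 fold change 0.76 ± 0.08, SE, DESeq2, q = 6.43e-20), in 4 of 4 pairs like ITGA1, ITGA2 and ITGA11. Its relative DDR1 was lower, at -0.44 (q = 2.54e-04). The heparan sulfate proteoglycan gene SDC1 was higher at 0.50 and SDC4 lower at -0.32.

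The ligand genes went mostly the other way from the collagen-binding chains. Of 22 genes for integrin ligands, 3 were called higher, 14 lower and 5 were not called, with a median log2 fold change of -0.40. The share called was 77.3%, beside 46.6% of all genes tested. COL3A1, COL1A2 and COL1A1, chains of the fibrillar collagens bound by α1β1, α2β1 and α11β1, had log2 fold changes of -2.50, -1.39 and -0.95 (DESeq2, q = 3.36e-112, 2.77e-40 and 1.15e-36). FBN1, the gene of the RGD-containing microfibril protein fibrillin-1, was at -0.61. Each of these 4 was lower in 4 of 4 pairs. The 3 called higher were SPP1, the laminin chain gene LAMA5 and COL6A1, at 1.79, 0.43 and 0.22 (DESeq2, q = 1.23e-07, 7.61e-05 and 0.0453). SPP1 was at low levels, with means of 26.3 normalized counts in controls and 94.8 in OGTi. Of the other laminin chain genes listed, LAMB1 and LAMC1 were called lower, at -0.35 and -0.45 (DESeq2, q = 9.10e-05 and 7.75e-08). LAMA4 was not called (0.16, DESeq2, q = 0.322). Members and ligands were measured in the same libraries, and whether the receptor and ligand values were linked was not tested.

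**Figure D4:**
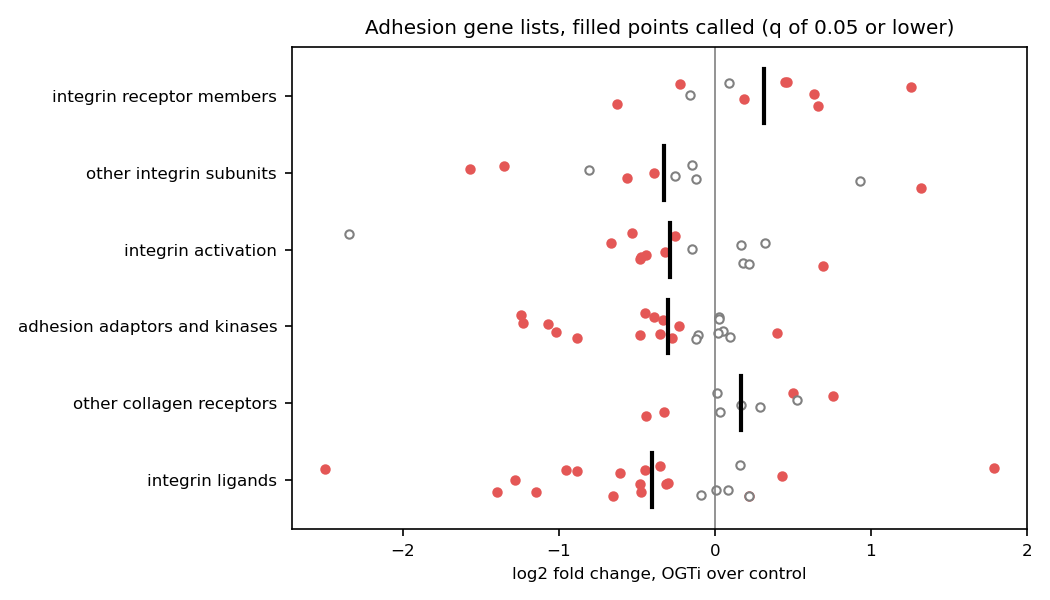
Log2 fold change of OGTi over control (horizontal axis) for each tested gene of the integrin receptor set and of 5 further adhesion lists, filled where called at a q of 0.05 or lower, with a black line at each list's median and vertical scatter for legibility only. The medians are 0.32 for the integrin receptor genes, -0.33 for other subunits, -0.29 for activation genes, -0.30 for adaptors and kinases, 0.17 for other collagen receptors and -0.40 for ligands.

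The genes with the pattern most like that of ITGA2 and of ITGB3, the called genes with the largest rise and the largest fall, were sought among the 10934 genes that averaged 100 normalized counts or more. Likeness was the root mean square difference, over the 8 libraries, of log2 normalized counts taken relative to the control mean of each gene. Nearest to ITGA2 were STC1 (0.127), PTX3 (0.148) and PNP (0.172). STC1, which encodes the secreted glycoprotein stanniocalcin-1, measured 392 and 932 normalized counts on average in control and OGTi. Nearest to ITGB3 were SOGA3 (0.110), PTPN21 (0.112) and ADAMTS16 (0.134). PTPN21, a protein tyrosine phosphatase gene, averaged 1306 and 857 normalized counts. Since the 8 libraries fall into 2 treatment groups, the measure reflects both the change between groups and the spread within them.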

How the data were processed

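RNA-seq was performed by the authors on 8 LX-2 cultures, as stranded paired-end libraries after oligo-dT enrichment. Per the labels and the study's methods, reads were aligned to hg38 with Bowtie2 2.3.5.1 and counted per gene with RSEM 1.3.1, and the authors deposited the resulting estimated counts of each library without scaling. A deposited table of the authors' own comparison (mean, fold change, error and p-values) was not used. Values were rounded to integers, and a minimum of 10 counts summed over the 8 libraries left 14895 genes. These were fitted with DESeq2 1.42.0 (R 4.3.3; median-of-ratios size factors, replicate number as a block, Wald test, Benjamini-Hochberg q of 0.05 or lower), following the design of the study, and 14028 of them received a q. The block rests on the labels' replicate numbers: over 11702 genes, deviations from the group mean correlated between same-numbered cultures at r = 0.379, 0.303, 0.138 and 0.269. Between different numbers r was -0.309 to 0.272, and control 3 with OGTi 4 (0.272) and control 4 with OGTi 3 (0.201) exceeded the value of replicate 3. Control 3 with OGTi 4 also exceeded the value of replicate 4 (0.269). No 2 libraries of a group were copies (chi-square per degree of freedom 7.54 to 30.6).

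Transcript lengths, exons and gene positions came from GENCODE 44 on GRCh38, in which 15800 of the 16796 symbols were found. Sequences came from RefSeq (GRCh38.p14). The members and gene lists were chosen with earlier results of these data known. Named genes were all 10 members, the 4 called genes of each list with the largest absolute Wald statistic, markers at or near 0, and the 3 genes nearest in pattern to the members with the largest rise and fall. PELO, FN1, ITGA7, ITGA10, VWF, SPP1, LAMA4, LAMA5, LAMB1, LAMC1 and COL6A1 were named after their values were seen. Alternatives were fits without the block, edgeR 4.0.16 (quasi-likelihood, TMM), TMM factors, other filters, another transcript length and leaving out each pair. The fits were tested on simulated data.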

Additional observations from a re-analysis of the deposited data

Results flagged for a closer look

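In groups of 4, a library was set aside for a closer look when its gap to the nearest other value as a share of the range of the group exceeded Dixon's 95% critical value. Of 74 groups tested, 7 met this, where chance gives about 1 in 20, or 3.7. ITGA3 in control replicate 3 was at 15266 normalized counts, below the other controls at 16394 to 16536. The remaining 6 were not integrin genes. ZYX in control replicate 2 was at 39873, against 44121 to 44541 in the other controls, and ACTA2 in the same library was at 254, against 818 to 920.5. In OGTi replicate 1, TNS1 was at 2391 (others 1839 to 1919), DDR2 at 4468 (5072 to 5118), SDC1 at 7155 (5328 to 5568.5) and SDC4 at 3173 (4469 to 4643). OGTi replicate 1 also held the highest ITGA2, ITGA3, ITGA6, ITGB1 and ITGB5 values of its group, and none of those passed the criterion.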

How the results depend on the processing

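Under 10 alternatives, the 10 integrin genes gave 100 log2 fold changes, of which 0 reversed direction, 89 kept their direction and call, 10 lost their call and 1 gained one. The 24 genes followed from the other lists kept direction and call in 240 of 240 values. The number of genes called over the whole table ran from 5127 to 7074, beside 6541. Pairing mattered for 2 genes: without the replicate block, ITGA5 was at 0.19 (q = 0.0733) and ITGA11 at 0.60 (q = 0.201) in DESeq2. In edgeR without the block ITGA5 was at 0.19 (q = 0.0908) and ITGA11 at 0.60 (q = 0.0907), and in edgeR with the block ITGA5 was at 0.19 (q = 0.0508). The block changed no other member's call. Leaving out each pair in turn moved ITGA5 between 0.11 and 0.26, ITGB1 between -0.27 and -0.19 and ITGAV between -0.38 and -0.082. ITGA5 was lost without pair 1, 2 or 3 and ITGB1 without pair 2 or 3, and ITGAV was called without pair 1. Such fits have fewer samples, and the cause of the gained call was not tested. The longest transcript, in place of the canonical one, moved ITGB1 over the 6 alpha partners to 0.984 in controls and 0.5995 in OGTi. It moved the collagen-binding share to 3.20% and 3.89%. In both measures the order of groups stayed the same. At 4 libraries a group, the intervals of ITGAV and ITGB5 leave room for changes of either sign. With the block, each p-value sets the mean treatment difference against the spread between replicate cultures of 1 cell line that remains after pairing. DESeq2 estimated that spread in part from all genes. Protein levels and receptor pairing at the cell surface were not measured here.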
